A study of Mus musculus with 6 samples.

Results

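The G1 cyclins, their kinases and the RB-E2F switch were followed here as 10 genes: Ccnd1, Ccnd2, Ccnd3, Ccne1, Ccne2, Cdk4, Cdk6, Cdkn1b, Rb1 and E2f1. They were chosen by name, for their role in the G1 to S transition, but with earlier results of these data known. All 10 are among the 20756 genes of the deposited table. Polyadenylated RNA was read at its 3′ end in 6 libraries of mouse tumor organoids, cultures grown in basement-membrane extract from an intestinal tumor's liver metastasis in C57BL/6 mice. The sgPrkci organoids (3 libraries) carried a guide RNA that targets Prkci, which encodes an atypical protein kinase C named lambda or iota, and are described as PKClambdaKO. The sgScr organoids (3 libraries) carried a scrambled guide, whose genotype label is spelled sgScbr, and are described as WT. All were untreated and harvested at 72 h after plating, in medium with EGF, and the tissue label is small intestine. The sources used here give neither the driver mutations of the tumor nor the number of clones in each guide population, so the p-values measure the spread between libraries and the guide cannot be told apart from other differences between the organoid populations.

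D-type cyclins (Ccnd1, Ccnd2, Ccnd3) are made in answer to growth factors and bind the kinases Cdk4 and Cdk6, which start to phosphorylate RB, the product of Rb1. RB holds E2F transcription factors in check, and as it is phosphorylated E2F1 and its relatives switch on genes of DNA replication, E-type cyclins (Ccne1, Ccne2) among them. Cyclin E with Cdk2 completes the step, and p27 (Cdkn1b) restrains cyclin E-Cdk2 and also binds the cyclin D complexes. In the intestine, Ccnd1 and Ccnd2 are both known as genes that support the growth of tumors driven by WNT signalling.

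The D-type cyclins turned out to differ in direction, and their transcripts have to be told apart by sequence. The first 60 bases of each coding sequence on GRCm38 (GENCODE M21) are shown because they hold both what the 3 proteins share and where they part. Capitals mark the codons of the LxCxE motif, through which D-type cyclins bind RB, at codons 5 to 9 of Ccnd1 (chr7:144939634-144939693, minus strand) and codons 3 to 7 of Ccnd2 (chr6:127150714-127150773, minus strand) and of Ccnd3 (chr17:47593655-47593714, plus strand).
Ccnd1: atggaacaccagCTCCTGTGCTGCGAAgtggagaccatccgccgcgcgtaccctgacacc
Ccnd2: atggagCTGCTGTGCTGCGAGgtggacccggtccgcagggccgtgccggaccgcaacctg
Ccnd3: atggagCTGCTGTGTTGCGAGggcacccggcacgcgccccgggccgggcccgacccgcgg
The coding sequences are 888, 870 and 879 bases long for Ccnd1, Ccnd2 and Ccnd3, which gives proteins of 295, 289 and 292 residues. Coding identity was 66.9% between Ccnd1 and Ccnd2, 62.6% between Ccnd1 and Ccnd3 and 65.8% between Ccnd2 and Ccnd3. The longest run of bases that any of these pairs shared was 20, and in the last 500 bases of the transcripts, where the tags fall, it was 13, against a read length of 75 bases. The same held for Cdk4 and Cdk6 (63.0% identity, longest shared run 20 bases) and for Ccne1 and Ccne2 (58.9%, 18 bases), so none of these pairs shares a stretch as long as a read.

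Levels are in CPM, the reads of a gene scaled to a library total of 1000000. Fold changes are differences of log2(CPM + 1), sgPrkci minus sgScr, a scale on which changes of low genes come out too small. Depth was 2141125 to 2815760 reads in sgPrkci libraries and 2821908 to 3048170 in sgScr libraries, so 1 read was worth 0.328 to 0.467 CPM. Mitochondrially encoded genes took 13.3, 13.9 and 13.4% of reads in sgPrkci and 12.9, 11.8 and 11.7% in sgScr, so this share was higher in every sgPrkci library, and its part in the values below was not tested. Prkci itself had 53.9, 56.5 and 46.9 CPM in sgPrkci and 46.6, 54.5 and 63.8 CPM in sgScr (log2 fold change -0.06, SE 0.13, limma adjusted p = 0.77, a sign that flips to 0.04 with TMM scaling). Where the guide cuts and where these tags lie relative to it are not known here, so the level of Prkci does not check the labels. Of the 8 epithelial markers all were present, with Epcam at 538 to 823 CPM over the 6 libraries, while 15 of 23 markers of fibroblasts, endothelium, leukocytes and hepatocytes were listed, 4 of them at 0 throughout, and summed to 10.7 to 15.8 CPM in sgPrkci and 7.55 to 26.1 CPM in sgScr. The leukocyte markers were carried by Cd68, which was called higher (10.9, 7.94 and 11.4 CPM in sgPrkci and 7.38, 5.25 and 4.96 CPM in sgScr), and the hepatocyte markers by Apoa1, called lower (1.13, 0.467 and 0.355 CPM in sgPrkci and 16.1, 1.64 and 5.67 CPM in sgScr), and their part in the results was not tested.

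Of the 10 genes, 4 passed the threshold of an adjusted p under 0.05 (limma on all 12195 tested genes, Benjamini-Hochberg): Ccnd2 rose, and Ccnd1, E2f1 and Cdk4 fell. Over all tested genes 31.8% passed, 11.4% higher and 20.5% lower in sgPrkci, so the number of calls by itself does not set these genes apart. The CPM ranges of the groups did not overlap for 6 of the 10 (Ccnd1, Ccnd2, Cdk4, Cdkn1b, Rb1 and E2f1), beside 43.0% of all tested genes. With TMM scaling, a trimmed mean of ratios between libraries, which puts the median over all tested genes at -0.02 on the log2 scale, beside -0.11 with CPM, 15.7% of genes were called higher and 14.9% lower, so that 51.4% of calls were higher, against 35.7% with CPM. On that scale 3 of the 10 were higher (Ccnd2, Cdkn1b, Rb1) and 2 lower (Ccnd1, E2f1). The median log2 fold change of the 10 was -0.00 on the CPM scale, with 5 genes below 0 and 5 above.

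**Figure D1:**
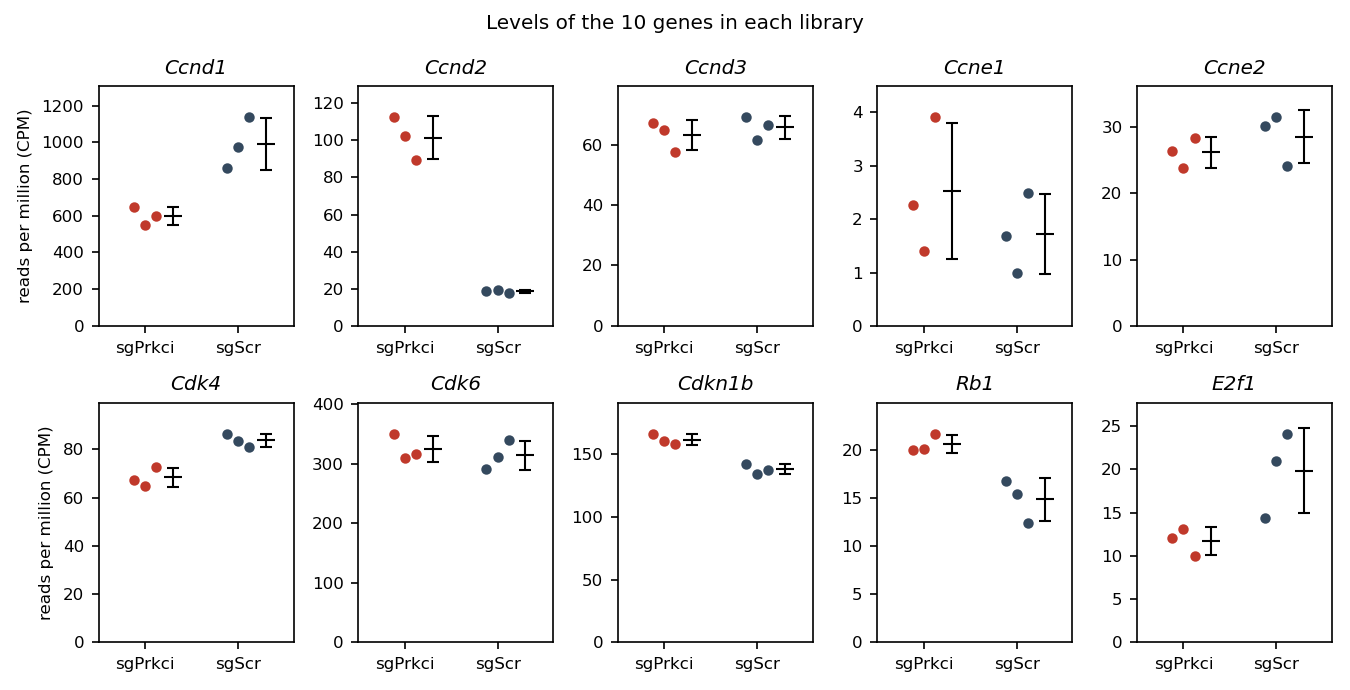
Levels of the 10 genes in CPM (vertical axes from 0, each panel with its own scale). Points are single libraries, sgPrkci in red and sgScr in dark blue, and bars are mean ± SD of 3 libraries. Ccnd2 sits at 89.5 to 112 CPM in sgPrkci, all above the 17.7 to 19.4 CPM of sgScr, and Ccnd1 at 549 to 649 CPM, all below 859 to 1136 CPM.

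Ccnd2, the D-type cyclin with the fewest reads in sgScr organoids, was the member with the largest fold change. Ccnd2 (ENSMUSG00000000184, chromosome 6, 127125162 to 127152193, minus strand) had 112, 102 and 89.5 CPM in sgPrkci, against 18.8, 19.4 and 17.7 CPM in sgScr. The lowest sgPrkci library thus lay several times above the highest sgScr library, and the sgScr libraries were nearly alike. The means were 101 ± 11.5 CPM in sgPrkci and 18.6 ± 0.83 CPM in sgScr (SD, n = 3 each), a ratio of 5.45, from 769 and 165 reads in all. The log2 fold change was 2.38 (SE 0.13, limma adjusted p = 1.3e-14) and ranged from 2.17 to 2.55 over 18 alternative settings, past the threshold in each.

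Ccnd1, the most abundant of the 10 genes and a WNT and growth factor target, went the other way. Ccnd1 (ENSMUSG00000070348, chromosome 7, 144929931 to 144939925, minus strand) had 649, 549 and 601 CPM in sgPrkci and 859, 977 and 1136 CPM in sgScr. All sgPrkci libraries were below all sgScr libraries, and the spread was wider in sgScr. Its means were 599.6 ± 49.9 CPM in sgPrkci and 991 ± 139 CPM in sgScr (SD, n = 3 each), a ratio of 0.605. The log2 fold change was -0.72 (SE 0.09, 95% interval -0.90 to -0.54, limma adjusted p = 3.5e-07), and it was called in all 18 alternative settings, at -0.82 to -0.61. An exon of Ccnd1 overlaps LTO1 on the other strand, a gene listed with 18 to 35 reads a library, against 1176 to 3207 reads for Ccnd1.

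Ccnd3, the D-type cyclin best known for lymphoid cells, showed no difference beyond the spread between libraries. Ccnd3 (ENSMUSG00000034165, chromosome 17, 47505051 to 47599691, plus strand) had 67.1, 64.9 and 57.5 CPM in sgPrkci and 69.1, 61.7 and 66.6 CPM in sgScr, so the groups overlapped. Its log2 fold change was -0.06 (SE 0.11, 95% interval -0.29 to 0.18, limma adjusted p = 0.74), and its sign turned to 0.04 with TMM scaling. An exon overlaps Bysl on the other strand, which had 33 to 78 reads a library. Since the sources used here do not give the strand setting of the counting, reads of genes that overlap on opposite strands cannot be told apart.

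The D-type cyclin pool was smaller in sgPrkci and held more Ccnd2. Ccnd1, Ccnd2 and Ccnd3 together came to 829, 716 and 748 CPM in sgPrkci, against 947, 1058 and 1221 CPM in sgScr. The means were 764 ± 57.9 CPM in sgPrkci and 1075 ± 138 CPM in sgScr (SD, n = 3 each), a ratio of 0.711. Ccnd2 made up 13.6% of these reads in sgPrkci replicate 1 (exact 95% interval 12.2 to 15.1%), 14.3% in replicate 2 (12.6 to 16.1%) and 11.97% in replicate 3 (10.6 to 13.4%). In sgScr its share was 1.98% (1.501 to 2.57%), 1.83% (1.40 to 2.35%) and 1.45% (1.08 to 1.91%). No interval of one group touched one of the other, and these intervals cover counting error only. Ccnd1 took 78.3, 76.7 and 80.3% of the pool in sgPrkci and 90.7, 92.3 and 93.1% in sgScr. Ccnd3, whose own level overlapped between groups, took 8.10, 9.06 and 7.70% in sgPrkci and 7.29, 5.83 and 5.46% in sgScr. Put as a ratio that no library scaling touches, there were 5.78, 5.37 and 6.71 reads of Ccnd1 for each read of Ccnd2 in sgPrkci, against 45.8, 50.5 and 64.1 in sgScr. Shares and ratios within the pool are given as a description with no test.

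**Figure D2:**
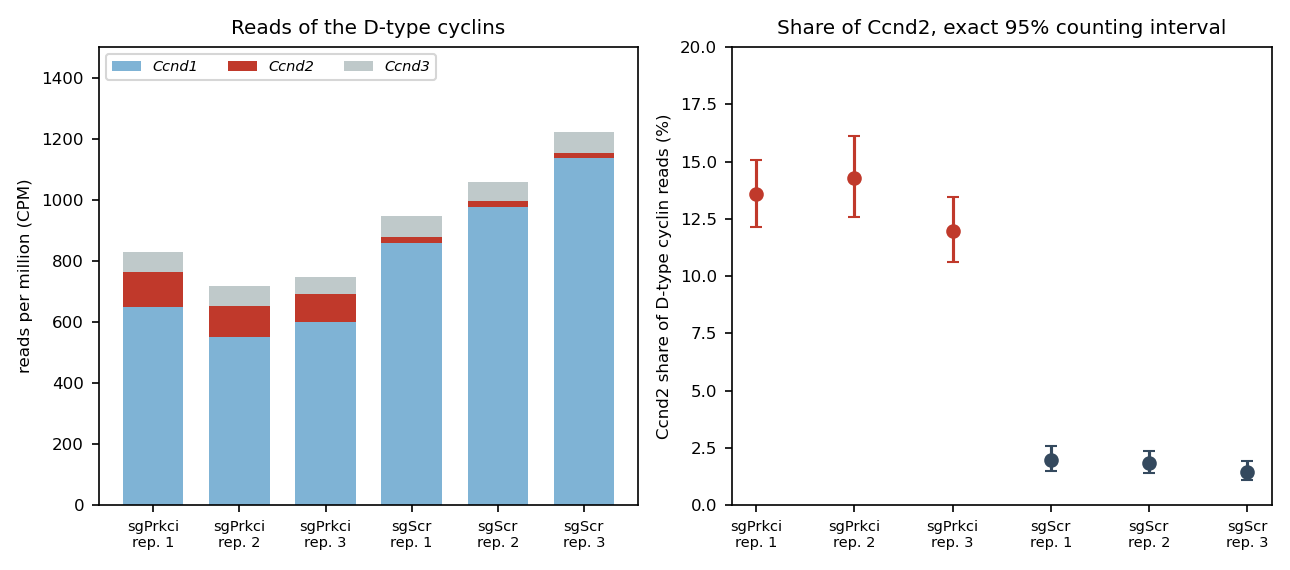
Left, summed CPM of Ccnd1 (blue), Ccnd2 (red) and Ccnd3 (grey) in each library, as stacked bars from 0. Right, the share of Ccnd2 among the reads of the D-type cyclins in percent, with exact 95% counting intervals, sgPrkci in red and sgScr in dark blue. The pool runs from 716 to 829 CPM in sgPrkci and from 947 to 1221 CPM in sgScr, and the Ccnd2 share from 11.97 to 14.3% in sgPrkci and from 1.45 to 1.98% in sgScr.

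The E-type cyclins showed no difference that passed the test. Ccne2 (ENSMUSG00000028212, chromosome 4, 11191351 to 11204779, plus strand) carried most of the E-type reads and had 26.4, 23.8 and 28.4 CPM in sgPrkci and 30.2, 31.5 and 24.1 CPM in sgScr. The groups overlapped, with a log2 fold change of -0.12 (SE 0.16, 95% interval -0.44 to 0.21, limma adjusted p = 0.62). Ints8 overlaps a Ccne2 exon on the other strand, at 65, 74 and 43 reads in sgPrkci and 32, 44 and 45 reads in sgScr. Ccne1 (ENSMUSG00000002068, chromosome 7, 38097984 to 38107534, minus strand) was read 6, 3 and 11 times in sgPrkci and 5, 3 and 7 times in sgScr. That is 2.26, 1.40 and 3.91 CPM in sgPrkci and 1.68, 0.984 and 2.48 CPM in sgScr, near the floor of 3 reads in the lowest library of each group. A log2 fold change of 0.35 had a 95% interval of -0.37 to 1.07 (limma adjusted p = 0.48). The interval holds falls as well as rises of Ccne1, and it is not a limit of detection at this depth. The estimate moved with the tool and the library, to 0.72 with edgeR, 0.70 with DESeq2 and 0.08 without sgPrkci replicate 3, and passed the threshold in 0 of 17 alternative settings. Summed, the E-type cyclins came to 28.7, 25.2 and 32.3 CPM in sgPrkci and 31.8, 32.5 and 26.6 CPM in sgScr.

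Of the cyclin D kinases, Cdk4 was slightly lower in sgPrkci and Cdk6, by far the more abundant, showed no difference past the threshold. Cdk4 (ENSMUSG00000006728, chromosome 10, 127063534 to 127067920, plus strand) had 67.5, 64.9 and 72.8 CPM in sgPrkci and 86.5, 83.7 and 81.2 CPM in sgScr. The groups did not overlap, and the means were 68.4 ± 4.02 CPM in sgPrkci and 83.8 ± 2.67 CPM in sgScr (SD, n = 3 each). The log2 fold change of -0.29 (SE 0.11, limma adjusted p = 0.039) was the weakest of the 4 calls. It was no longer past the threshold with TMM scaling (-0.19, adjusted p = 0.20), with the median shift of its chromosome subtracted (-0.12, adjusted p = 0.45, below called chromosome medians removed) or without any single library other than sgPrkci replicate 3 (-0.31 to -0.25, adjusted p = 0.055 to 0.13). Tspan31 overlaps Cdk4 on the other strand and had 61, 36 and 69 reads in sgPrkci and 45, 88 and 94 reads in sgScr. Cdk6 (ENSMUSG00000040274, chromosome 5, 3341485 to 3531008, plus strand) had 350.0, 309 and 316 CPM in sgPrkci and 292, 311 and 340.2 CPM in sgScr. Its groups overlapped (log2 fold change 0.05, SE 0.08, 95% interval -0.12 to 0.22, limma adjusted p = 0.70), and its sign turned to -0.01 without sgPrkci replicate 1 and to -0.00 without sgScr replicate 1.

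Cdk4 and Cdk6 together overlapped between the groups, at 418, 374 and 389 CPM in sgPrkci and 378, 394 and 421 CPM in sgScr. Cdk4 made up 16.2, 17.4 and 18.7% of the pair's reads in sgPrkci and 22.9, 21.2 and 19.3% in sgScr. The highest sgPrkci share and the lowest sgScr share lay close together. There were 1.98, 1.92 and 1.92 D-type cyclin reads for each Cdk4 or Cdk6 read in sgPrkci and 2.50, 2.68 and 2.90 in sgScr, so relative to their kinases the D-type cyclins were fewer in each sgPrkci library.

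The promoter window of Cdk4 is shown because it is unusual among promoters for the E-boxes it holds, the letters CACGTG that MYC and related factors read, and Cdk4 is a known MYC target. Windows are from RefSeq on GRCm38.p6, 250 bases before to 50 after the start, and 6 of the 10 genes have one. Capitals mark each CACGTG, a motif that reads the same on both strands, in the Cdk4 window (chr10:127063285-127063584, plus strand).
Cdk4 promoter: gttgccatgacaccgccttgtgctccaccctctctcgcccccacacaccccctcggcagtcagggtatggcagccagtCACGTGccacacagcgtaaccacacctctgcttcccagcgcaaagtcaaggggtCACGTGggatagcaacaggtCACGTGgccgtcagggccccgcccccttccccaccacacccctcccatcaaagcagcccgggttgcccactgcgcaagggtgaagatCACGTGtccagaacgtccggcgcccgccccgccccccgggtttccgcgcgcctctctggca
The 4 matches start at -172, -118, -98 and -11 from the start site. A window with at least 4 was found 8 times among 32851 (0.0244%), and 7.15% of all windows held at least 1. The Cdk6 window held 1 as well, at -220. That window (chr5:3343643-3343942, plus strand) lies inside the gene as GENCODE M21 places it, which starts at 3341485. The bases before that start were therefore not searched for Cdk6. By gene, 2 of the 6 with a window had a match (33.3%), beside 8.09% of all genes with a window. A match is a run of letters and not evidence of binding. Myc itself had 24.5, 31.8 and 15.3 CPM in sgPrkci and 13.7, 19.7 and 31.5 CPM in sgScr, with overlapping groups (log2 fold change 0.15, limma adjusted p = 0.77).

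Cdkn1b, the gene of p27, was higher in each sgPrkci library than in any sgScr library, by a small margin that lay on the edge of the threshold. Cdkn1b (ENSMUSG00000003031, chromosome 6, 134920401 to 134925513, plus strand) had 166, 161 and 158 CPM in sgPrkci and 142, 135 and 137 CPM in sgScr. The means were 162 ± 4.24 CPM in sgPrkci and 138 ± 3.85 CPM in sgScr (SD, n = 3 each), the narrowest relative spread among the 10 genes in sgPrkci. The log2 fold change was 0.23 (SE 0.09, 95% interval 0.04 to 0.41) with a limma adjusted p of 0.053. With TMM scaling it passed (0.33, adjusted p = 0.0054), and so it did without sgScr replicate 1 (0.25, adjusted p = 0.047). There were 4.98, 4.46 and 4.73 D-type cyclin reads for each Cdkn1b read in sgPrkci, against 6.66, 7.86 and 8.88 in sgScr.

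Rb1, the gene of the retinoblastoma protein that holds E2F in check, lay higher in sgPrkci in all libraries but did not pass the threshold. Rb1 (ENSMUSG00000022105, chromosome 14, 73183673 to 73325822, minus strand) had 19.99, 20.1 and 21.7 CPM in sgPrkci and 16.8, 15.4 and 12.4 CPM in sgScr. The log2 fold change was 0.45 (SE 0.18, 95% interval 0.08 to 0.82, limma adjusted p = 0.055), with 157 reads over the sgPrkci libraries and 132 over the sgScr libraries. It passed with TMM scaling (0.55, adjusted p = 0.020) and without sgScr replicate 1 (0.54, adjusted p = 0.036). Rb1 overlaps Lpar6 and Rcbtb2 on the other strand, and Lpar6 had 89, 79 and 79 reads in sgPrkci and 88, 71 and 76 reads in sgScr, more than Rb1 in every library.

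E2f1, the E2F that activates genes of S phase and is itself an E2F target, fell. E2f1 (ENSMUSG00000027490, chromosome 2, 154559407 to 154569892, minus strand) had 12.1, 13.1 and 9.94 CPM in sgPrkci and 14.4, 21.0 and 24.1 CPM in sgScr. The groups did not overlap, but sgScr replicate 1 lay much closer to the sgPrkci libraries than to the other sgScr libraries. The means were 11.7 ± 1.599 CPM in sgPrkci and 19.8 ± 4.94 CPM in sgScr (SD, n = 3 each), with a log2 fold change of -0.69 (SE 0.20, 95% interval -1.11 to -0.28, limma adjusted p = 0.0093). The call was lost with DESeq2 (-0.66, adjusted p = 0.089), without sgPrkci replicate 3 (-0.59, adjusted p = 0.051), without sgScr replicate 2 (-0.64, adjusted p = 0.056) and without sgScr replicate 3 (-0.54, adjusted p = 0.075). For each read of E2f1 there were 1.66, 1.54 and 2.18 reads of Rb1 in sgPrkci and 1.16, 0.734 and 0.515 in sgScr. That these ratios did not overlap follows from the separate ranges of Rb1 and E2f1 given above and adds nothing to them.

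**Figure D3:**
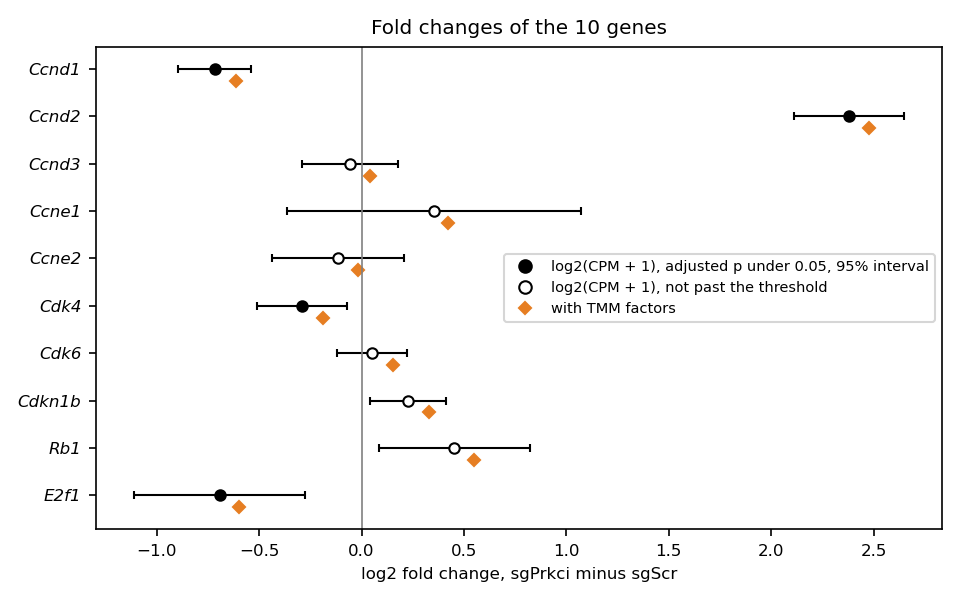
Log2 fold change of the 10 genes, sgPrkci minus sgScr, from log2(CPM + 1) (circles with 95% interval, filled where the limma adjusted p is under 0.05) and with TMM scaling (orange diamonds). Ccnd2 stands at 2.38 and Ccnd1 and E2f1 at -0.72 and -0.69, while the intervals of Ccnd3, Ccne1, Ccne2 and Cdk6 span 0.

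A 3′ tag is read about once per transcript, so levels of different genes can be set side by side with no division by length, apart from differences in how well each 3′ end is captured. In sgPrkci the order of mean levels was Ccnd1, Cdk6, Cdkn1b, Ccnd2, Cdk4, Ccnd3, Ccne2, Rb1, E2f1 and Ccne1, and the libraries' ranges overlapped between neighbours for Cdk4 and Ccnd3 alone. In sgScr it was Ccnd1, Cdk6, Cdkn1b, Cdk4, Ccnd3, Ccne2, E2f1, Ccnd2, Rb1 and Ccne1, with overlap between Ccne2 and E2f1 and between E2f1 and Ccnd2. Ccnd2 thus stood above Ccnd3 in every sgPrkci library and below it in every sgScr library. Ccnd1, Cdk6 and Cdkn1b kept the top of the order in both groups, and Ccne1 its end.

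Over the 6 libraries, the genes whose log2(CPM + 1) followed that of Ccnd1 most closely were Cep152 (Pearson's r 0.996), Dync1li2 (0.994), Mlx (0.994), Leprotl1 (0.993) and Cat (0.992). All of them were higher in sgScr, and 855 of the 7987 genes compared had an r of at least 0.9. The 6 points fall into the 2 groups, so the likeness reflects the group difference as well as the libraries within a group.

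Among 22 further G1 and RB-E2F genes, 1 rose and 5 fell past the limma threshold, beside 11.4% higher and 20.5% lower over all tested genes, so the calls were near that background. The median log2 fold change was -0.21, beside -0.11 over all tested genes. Cdkn1a, the gene of p21, a p53 target that inhibits Cdk2 complexes, was the 1 that rose, with 614, 567 and 531 CPM in sgPrkci and 414, 333 and 323 CPM in sgScr (log2 fold change 0.68, SE 0.09, adjusted p = 5e-07). There were 1.06, 0.984 and 1.08 D-type cyclin reads for each read of Cdkn1a or Cdkn1b in sgPrkci, against 1.70, 2.26 and 2.65 in sgScr. Ccnh, a subunit of the kinase that activates CDKs, had 39.2, 47.2 and 41.2 CPM in sgPrkci and 53.3, 58.7 and 61.7 CPM in sgScr (-0.44, adjusted p = 0.0079, and 0.13 with DESeq2). E2f7, a repressor E2F that E2F1 itself activates, had 11.3, 9.34 and 10.6 CPM in sgPrkci and 14.1, 18.4 and 20.2 CPM in sgScr (-0.69, adjusted p = 0.0089). The call was lost with the chromosome medians removed (-0.52, adjusted p = 0.053), with DESeq2 (-0.64, adjusted p = 0.12) and without sgScr replicate 3 (-0.58, adjusted p = 0.058). E2f6, another repressor of the family, fell at the edge of the threshold (-0.54, adjusted p = 0.032) and lost its call with TMM scaling (-0.44, adjusted p = 0.080) and without sgPrkci replicate 1 or 3 or sgScr replicate 1 or 3 (-0.51 to -0.47). The other members that fell were Tfdp2 (-0.36), a partner that E2Fs need to bind DNA, and Cdkn2a (-0.26), the gene of p16 and p19ARF, whose groups overlapped. Neither call was firm, since Tfdp2 passed in 5 of 18 alternative settings and Cdkn2a in 9. With TMM scaling they stood at -0.26 (adjusted p = 0.14) and -0.15 (adjusted p = 0.22). Tfdp2 lost its call without any single library other than sgPrkci replicate 3 (-0.38 to -0.32), and Cdkn2a lost its call without sgPrkci replicate 1 or 3 or sgScr replicate 1 or 2 (-0.24 to -0.18). With TMM scaling 2 of the 22 were higher and 2 lower, and DESeq2 called 1 higher and 0 lower, with 2 lower at an unadjusted p under 0.05. Cdk2, the partner of the E-type cyclins, had 14.5 ± 1.46 CPM in sgPrkci and 15.2 ± 1.51 CPM in sgScr (SD, n = 3 each, limma adjusted p = 0.84).

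The textbook targets of E2F at the G1 to S transition were lower in sgPrkci almost throughout. Of 26 such genes, 22 fell and 0 rose past the limma threshold, beside 20.5% lower over all tested genes, all 26 had a log2 fold change below 0 (-1.11 to -0.21), and the median was -0.67. By edgeR 21 were lower and 0 higher, by DESeq2 17 and 0, and at an unadjusted p under 0.05 the count of higher genes was 0 with each of limma, edgeR and DESeq2. The list medians were -0.59 with edgeR and -0.60 with DESeq2, beside -0.02 over all genes with either tool. Mcm7, a subunit of the replicative helicase, had 131, 127 and 124 CPM in sgPrkci and 211, 240.5 and 237 CPM in sgScr (-0.84, SE 0.09, adjusted p = 1.8e-08). Cdt1, which loads that helicase at origins, had 26.0, 34.1 and 32.7 CPM in sgPrkci and 60.3, 71.2 and 64.5 CPM in sgScr (-1.06, adjusted p = 3.7e-07). Rrm1, a ribonucleotide reductase subunit, averaged 64.8 ± 2.33 CPM in sgPrkci and 117 ± 10.5 CPM in sgScr (SD, n = 3 each, -0.83). Those that did not pass were Mcm4 (-0.32), Rrm2 (-0.27), Fen1 (-0.39) and Msh6 (-0.21). The E-type cyclins, which are E2F targets as well, were not on that list, and neither passed.

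In these bulk libraries fewer cells in a phase of the cycle and less RNA per cell cannot be told apart. Epithelial markers moved in both directions beside the cell cycle genes. Krt20, a keratin of differentiated gut epithelium, had 23.0, 18.7 and 23.8 CPM in sgPrkci and 6.03, 1.31 and 0.354 CPM in sgScr. Cdx2, of the same marker list, went the other way, at -1.14 to -0.82 over 18 alternative settings and past the threshold in each. Of 8 epithelial markers 3 rose (Epcam, Krt20, Vil1) and 2 fell (Krt18, Cdx2), beside 11.4% higher and 20.5% lower over all tested genes. Krt18 stood at 0.01 with the chromosome medians removed. Their summed level was 3625 to 4010 CPM in sgPrkci and 3297 to 3855 CPM in sgScr. Their part in the values of the cyclins and the E2F targets was not tested.

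A promoter window of Mcm7, an E2F target, is shown because it holds 2 E2F-type runs. Whether such runs have a part in the fall of these genes was not tested. Another Mcm7 window (chr5:138171217-138171516, minus strand) holds 0. The motif searched was TTTCGCGC, TTTGGCGC, TTTCCCGC or TTTGCCGC on both strands, and capitals mark the matches, which start at -165 and 16 from the start (chr5:138171834-138172133, minus strand, RefSeq on GRCm38.p6).
Mcm7 promoter: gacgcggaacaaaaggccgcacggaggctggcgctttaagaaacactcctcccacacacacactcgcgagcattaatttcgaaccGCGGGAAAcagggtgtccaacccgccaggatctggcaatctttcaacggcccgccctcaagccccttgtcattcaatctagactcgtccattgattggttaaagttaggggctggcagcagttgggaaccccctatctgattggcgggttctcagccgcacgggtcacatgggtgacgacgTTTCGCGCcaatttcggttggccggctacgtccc
Such a run was found for 11 of the 22 E2F target genes with a window (50.0%), for 8 of the 18 other G1 and RB-E2F genes with one (44.4%) and for 704 of all 27025 genes (2.60%). Among the 6 genes of the main set with a window it was found in 0, which says only that these letters are not in those 300 bases. The E2f1 window (chr2:154569377-154569676, minus strand) lies inside the gene as GENCODE M21 places it, which starts at 154569892. The bases before that start were therefore not searched for E2f1, and the same holds for Cdk6, as given above.

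Of 8 genes of the MuvB complex and its partners, which take over from E2F later in the cycle, 1 fell and 0 rose past the limma threshold, beside 31.8% of all tested genes called. Their median log2 fold change was -0.12, close to the -0.11 of all tested genes. At an unadjusted p under 0.05, 1 was higher with limma and edgeR and 0 with DESeq2. Foxm1, the transcription factor that drives genes of G2 and mitosis, was the 1 that fell, with 23.0, 24.8 and 24.5 CPM in sgPrkci and 45.9, 44.3 and 41.8 CPM in sgScr (-0.84, SE 0.14, adjusted p = 2.6e-05). The groups were far apart and each was narrow.

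Of 16 genes that mark cyclins and CDK inhibitors for degradation, 1 rose and 5 fell past the limma threshold, beside 11.4% higher and 20.5% lower over all tested genes. With a median of -0.08, beside -0.11, the list lay near the background in both respects. Fbxo31, an F-box protein that targets cyclin D1, had 9.05, 9.34 and 11.0 CPM in sgPrkci and 24.1, 19.4 and 14.9 CPM in sgScr (-0.90, adjusted p = 0.0011). Skp1a, the adaptor of SCF ubiquitin ligases, averaged 202 ± 6.72 CPM in sgPrkci and 272 ± 2.97 CPM in sgScr (SD, n = 3 each, -0.43, adjusted p = 0.00015). Its chromosome, 11, had a median shift of -0.40 over 647 genes, and with the chromosome medians removed Skp1a stood at -0.04 (adjusted p = 0.80). Rbx1, the RING subunit of these ligases, lies on chromosome 15, with a median shift of -0.37, and likewise went to -0.03 (adjusted p = 0.88), beside -0.40 on the CPM scale. It also lost its call with TMM scaling (-0.30, adjusted p = 0.052), without sgPrkci replicate 2 (-0.28) and without sgScr replicate 2 (-0.35). Cul3, a scaffold of ubiquitin ligases that act on cyclin E, was the 1 that rose (0.28, adjusted p = 0.012). It was at 0.10 with the chromosome medians removed (adjusted p = 0.44), and the call ended without sgPrkci replicate 2 (0.26) or sgScr replicate 2 (0.25). Skp2 (-0.58), the F-box protein that marks p27, and its cofactor Cks1b (-0.30) were also called lower. Skp2 passed in 7 of 18 alternative settings and was at -0.22 with the chromosome medians removed (adjusted p = 0.47) and -0.34 without sgPrkci replicate 2 (adjusted p = 0.23), with calls also lost without sgScr replicate 1, 2 or 3 (-0.62 to -0.56). Cks1b was at -0.19 with TMM scaling (adjusted p = 0.12), -0.17 without sgPrkci replicate 3 (adjusted p = 0.18) and -0.27 without sgScr replicate 2 (adjusted p = 0.091). On the same scale the chromosomes of Ccnd1 (7), Ccnd2 (6), E2f1 (2) and Cdk4 (10) had median shifts of -0.08, 0.01, -0.14 and -0.17. All these shifts include the one common to all genes on the CPM scale. Relative to the median of all genes they were 0.0050, 0.09, -0.06 and -0.09, and those of chromosomes 11 and 15 were -0.31 and -0.28.

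Of 12 transcription factors and coactivators that feed the D-type cyclins or p27, 11 were tested and Mycn was not analysed here. Of the 11, 6 rose and 0 fell past the limma threshold, beside 11.4% higher and 20.5% lower over all tested genes. The median log2 fold change was 0.27, beside -0.11, and at an unadjusted p under 0.05 the count of lower genes was 0 with limma, edgeR and DESeq2 alike. Ctnnb1, beta-catenin of the WNT pathway, had 1222, 1283 and 1146 CPM in sgPrkci and 942, 898 and 909.7 CPM in sgScr (0.41, SE 0.07, adjusted p = 3.1e-05). Jun, an AP-1 subunit known to activate Ccnd1, had 33.6, 30.8 and 31.6 CPM in sgPrkci and 18.4, 13.8 and 21.97 CPM in sgScr (0.81, adjusted p = 0.00047). Klf4, a factor of differentiated gut epithelium that represses Ccnd1 in cultured cells, had 338, 391 and 359 CPM in sgPrkci and 307, 285 and 283 CPM in sgScr (0.31, adjusted p = 0.0041). Mycl, of the MYC family, rose on few reads (0.96, adjusted p = 0.011), with groups of 12.4, 11.2 and 4.97 CPM in sgPrkci and 3.35, 5.25 and 3.90 CPM in sgScr that overlapped. Its call ended without sgPrkci replicate 1 (0.74) or replicate 2 (0.81). The others were Tcf7l2 (0.27), the WNT pathway's DNA-binding partner of beta-catenin, and Foxo4 (0.55), a FOXO factor, a family known to activate Cdkn1b. With the chromosome medians removed both just missed the threshold (adjusted p = 0.054 each). Tcf7l2 was also lost without sgPrkci replicate 1 or 2 or sgScr replicate 2 (0.21 to 0.29), and Foxo4, whose groups overlapped, without sgPrkci replicate 1 or 2 or sgScr replicate 2 or 3 (0.43 to 0.50). Without sgPrkci replicate 1 or 2 the count of 6 fell to 3.

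**Figure D4:**
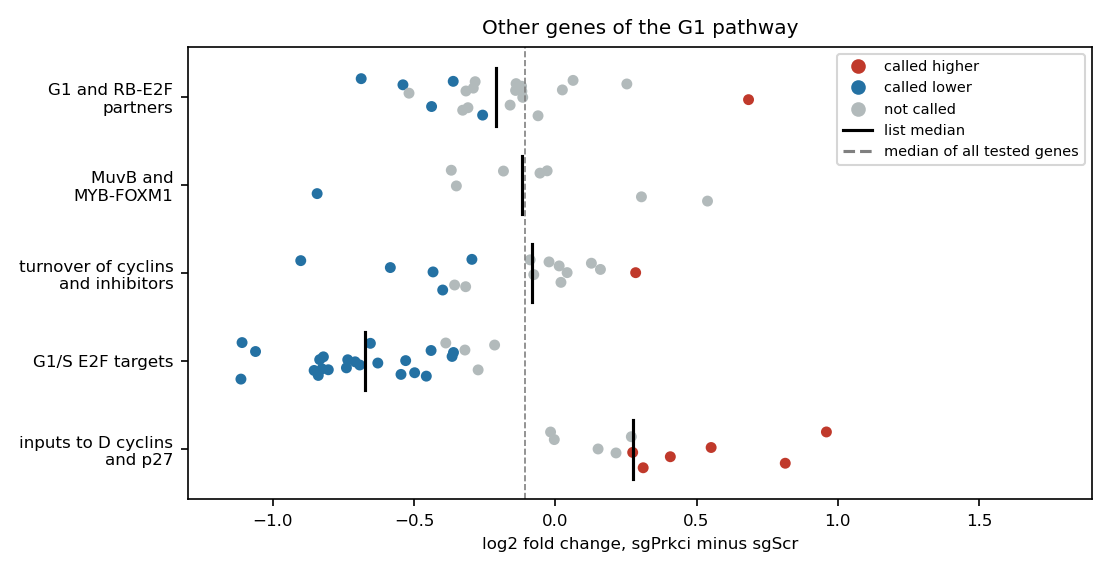
Log2 fold change, sgPrkci minus sgScr, from log2(CPM + 1) for the genes of 5 pathway lists, 1 point per tested gene, red where called higher and blue where called lower by limma, grey otherwise. Black bars are list medians and the dashed line is the median of all tested genes, -0.11. The 26 G1/S E2F targets all lie below 0, with a median of -0.67, and the 11 inputs to D cyclins and p27 have a median of 0.27.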

How the data were processed

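The deposited table gives CPM per Ensembl gene, reads scaled to the library total by the authors, for 6 libraries. Per the labels' protocols, libraries came from 200 ng of RNA and a QuantSeq 3′ FWD kit, molecular identifiers being optional, and were read as single reads of 75 bases, and per the submitters' processing notes the build was GRCm38. Not given in the sources used here are the aligner, counter, strand setting and use of molecular identifiers. All 124536 values (100% at a tolerance of 1e-06 of a read) came out as whole numbers of reads, so whole reads were recovered for edgeR 4.0.16 and DESeq2 1.42.0. A floor of 3 reads was 0.984 to 1.40 CPM per library.

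Genes with at least 1 CPM in 3 of 6 libraries, all 10 described genes among them, were tested two-sided with limma 3.58.1 under R 4.3.3. The fit used log2(CPM + 1), robust moderation and a variance trend. The fit was tried on simulated reads with few changed genes and no shift common to all genes. That trial does not cover the choice of scaling. Adjusted p-values are from that fit unless another setting is named. "Rose" and "fell" mean an adjusted p under 0.05. Groups came from genotype labels, and the libraries are biological replicates per the series text. GENCODE M21 gave names, positions, overlaps and coding sequences, matched by identifier (81 genes had no match). Removing chromosome medians subtracts from each gene the median shift of its chromosome.

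Named were the 10 genes, Prkci, up to 4 called genes of lowest p in each list and the 5 genes most like Ccnd1. One gene picked by this rule is not reported here. Other names were chosen with values in view: members of counts of 5 or fewer, partners of the 10 genes and markers that moved. The 10 genes and the lists were chosen with earlier results of these data known.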

Additional observations from a re-analysis of the deposited data

How the results depend on the processing

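No paired analysis was possible because replicate numbers only name libraries in accession order. Over 18 settings each, Ccnd1 (-0.82 to -0.61), Ccnd2 (2.17 to 2.55), Foxm1, Cdkn1a, Jun and Ctnnb1 kept their calls. The count of all genes called lower was 1118 with DESeq2 and 1624 with chromosome medians removed, against 2495. Of the 10 genes, 2 were called higher with DESeq2, chromosome medians removed and quantile scaling, and 3 with TMM, edgeR, median-of-ratios, a filter at 5 CPM and totals without Gm42418 and mitochondrial reads, while 1 was called lower with DESeq2 and plain moderation. Leaving out 1 library gave 1 to 3 higher and 1 to 2 lower. Ccnd3 turned to 0.04 (0.043 with DESeq2, TMM and median-of-ratios, 0.042 with edgeR) and 0.0093 (chromosome medians removed), and was -0.10 to 0.0066 with 1 library left out. Prkci turned to 0.034 (DESeq2), 0.042 (TMM), 0.032 (edgeR), 0.043 (median-of-ratios) and 0.0058 (quantile), and was -0.17 to 0.052 with 1 library left out, and Cdk6 was -0.0054 to 0.11, while Krt18 turned to 0.0072 (chromosome medians removed). Cdk4 lost its call at -0.19 (DESeq2, TMM, edgeR, median-of-ratios), -0.12 (chromosome medians removed), -0.24 (quantile), -0.27 (totals without Gm42418 and mitochondrial reads) and -0.29 (no filter, plain moderation), and was -0.33 to -0.25 with 1 library left out. Cdkn1b passed at 0.33 (DESeq2, TMM, edgeR, median-of-ratios), 0.23 (filter at 5 CPM) and 0.24 (those totals), and was 0.21 to 0.25 with 1 library left out. Rb1 passed at 0.55 (TMM, median-of-ratios), 0.53 (chromosome medians removed), 0.57 (edgeR), 0.45 (filter at 5 CPM), 0.60 (quantile) and 0.48 (those totals), and was 0.34 to 0.54 with 1 library left out. E2f1 lost its call at -0.66 (DESeq2) and -0.69 (plain moderation), and was -0.90 to -0.54 with 1 library left out. Of the G1 and RB-E2F partners, 2 were called higher with TMM, edgeR and median-of-ratios, and the lower calls were 0 with DESeq2, 2 with TMM, edgeR, median-of-ratios and plain moderation, 3 with chromosome medians removed and quantile scaling, and 2 to 5 with 1 library left out. Of the MuvB genes 1 was called higher with plain moderation and quantile scaling. Of the turnover genes 0 were called higher with plain moderation, and 2 lower with DESeq2, TMM, chromosome medians removed, edgeR, median-of-ratios and plain moderation, while leaving out 1 library gave 0 to 1 higher and 2 to 5 lower. Of the inputs 8 were called higher with TMM and edgeR, 6 with chromosome medians removed and 5 with DESeq2. With plain moderation 2 of the inputs were called higher, and 3 to 6 with 1 library left out. The cause of these shifts was not tested. Ccne1 was not tested with a filter at 5 CPM, and its reads limit any statement on it.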

Other observations

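The tested genes within 1 Mb of Ccnd2 did not share its rise. Of 7 such genes, a set chosen after seeing the data, 0 were higher and 2 were lower past the limma threshold, beside 11.4% higher and 20.5% lower over all tested genes, a count too small to set them apart. Their log2 fold changes ran from -0.93 to 0.25, with a median of -0.26. Tigar, a neighbour of Ccnd2 that encodes a fructose bisphosphatase, had 10.2, 14.0 and 15.3 CPM in sgPrkci and 15.8, 15.7 and 15.6 CPM in sgScr. Rad51ap1, a gene of homologous recombination, had 7.92, 10.3 and 7.10 CPM in sgPrkci and 12.1, 21.98 and 17.7 CPM in sgScr (log2 fold change -0.93, adjusted p = 0.0019). Around Ccnd1, 6 genes were tested, of which 2 were higher and 0 lower. Ano1, a chloride channel gene that lies beside Ccnd1 in a region often amplified in human tumors, had 135, 140 and 132 CPM in sgPrkci and 73.4, 82.0 and 91.4 CPM in sgScr, so it was higher where Ccnd1 was lower (0.72, adjusted p = 2.8e-06).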
